A study of Homo sapiens with 4 samples.

Results

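MYC and MAX network genes encode basic helix-loop-helix leucine zipper proteins that bind DNA in pairs. Rows were taken by symbol for 10 members, namely MYC, MYCN, MAX, MXI1, MXD1, MXD3, MXD4, MNT, MLX and MLXIP, and all 10 were listed among the 18899 named genes of the wild-type (WT) table and the 57169 of the shRNA table. RNA was sequenced from U87, a long-established line of human glioblastoma cells, in 4 groups that each hold 1 library. The groups were WT hypoxia (unmodified cells in 1% O2), WT normoxia (the same cells in ordinary culture), shALKBH5 (a short hairpin RNA that targets ALKBH5, in hypoxia) and shScr (a scrambled hairpin, in hypoxia). All cells grew in medium with 10% serum. The hairpin sequences, the number of hairpins and the length of the hypoxia were not given in the sources used here, and both shRNA groups were in hypoxia only. ALKBH5 removes the m6A methyl mark from RNA.

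As background, MYC and its relative MYCN pair with MAX and bind the E-box motif, CACGTG, to activate genes for ribosome assembly, nucleotide synthesis and cell division. MXD1, MXI1, MXD3, MXD4 and MNT also pair with MAX at E-boxes but bring in SIN3 and histone deacetylases, which repress transcription. MLX is the partner of a parallel arm, in which MLXIP, also called MondoA, senses glucose metabolites and activates TXNIP and ARRDC4. MXI1 is a known target of the hypoxia-inducible factors, and MYC mRNA is known to carry m6A and to be bound by the IGF2BP proteins.

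With 1 library per group, no difference below has a replicate check and no p-value is given. FPKM, the unit of the levels, counts fragments per unit of gene length after scaling for library size, so levels can be set between genes. A change is the difference in log2(FPKM + 1), which understates the change of scarce genes, and it is called when it reaches 2-fold, a log2 change of at least 1 in size. Genes needed a mean of at least 1 FPKM over both libraries compared. The shALKBH5 library held 16780154 recovered reads and the shScr library 17859370, whereas depth is unknown for both WT libraries. ALKBH5 itself stood at 113 FPKM in shALKBH5 cells and 186 FPKM in shScr cells, a log2 change of -0.71, which is under the 2-fold rule. Its change was smaller on other scales. It was -0.46 under TPM, which gives each library the same sum over genes, and -0.53 with total recovered reads. Of 8 glioma and mesenchymal markers, VIM, CD44, NES and CHI3L1 passed the filter in each comparison. Over the 4 libraries, VIM stood at 552 to 4494 FPKM and CD44 at 67.2 to 276.6 FPKM. NES stood at 2.93 to 12.4 FPKM and CHI3L1 at 0.43 to 24.8 FPKM. In the WT libraries CHI3L1 passed only through its level in hypoxia, 2.44 FPKM against 0.43 FPKM in normoxia, so it had to differ. CHI3L1 was called higher there at 1.27. The other markers did not pass. The astrocyte gene GFAP stood at 0.04 to 0.229 FPKM, S100B at 0 to 0.06 FPKM, SOX2 at 0 to 0.126 FPKM and OLIG2 at 0 to 1.35 FPKM. The leukocyte gene PTPRC stood at 0 to 0.23 FPKM and CD3E was listed at 0 in all 4 libraries. Of the 6 leukocyte and endothelial markers, PECAM1 alone passed the filter. It stood at 2.5 FPKM in WT hypoxia and 0.69 FPKM in WT normoxia, which was called higher at 1.05. In the WT libraries it passed only through its level in hypoxia, so it had to differ. PECAM1 stood at 1.24 FPKM in shALKBH5 cells and 1.53 FPKM in shScr cells. The other endothelial markers, CDH5 and VWF, were at most 0.0324 FPKM in any library, and the part of PECAM1 in the results was not tested.

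The promoters of the repressor genes called in hypoxia are shown first, as the genes whose levels differed most are among them. RefSeq windows of GRCh38.p14 matched 9 members with 12 start sites, and MYC was not among them. The 250 bases before each start were searched on both strands for the E-box, CACGTG, and for the core of a hypoxia-response element, ACGTG or GCGTG, which overlaps the E-box. Capitals mark every match to either motif. MXI1 has 3 annotated starts, and its windows lie on the plus strand at chr10:110207355-110207604, chr10:110209981-110210230 and chr10:110225746-110225992; each is named by its start base. The MXD4 window lies on the minus strand at chr4:2262295-2262359 and the MXD3 window on the minus strand at chr5:177312758-177313002. Bases inside an annotated exon of the same gene were left out of print, which left 65 of 250 bases for MXD4.
MXI1, start at 110207605: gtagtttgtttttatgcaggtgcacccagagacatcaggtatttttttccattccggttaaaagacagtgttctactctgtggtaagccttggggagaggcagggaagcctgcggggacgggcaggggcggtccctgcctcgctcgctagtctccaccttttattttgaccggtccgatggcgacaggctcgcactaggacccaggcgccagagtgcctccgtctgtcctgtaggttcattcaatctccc
MXI1, start at 110210231: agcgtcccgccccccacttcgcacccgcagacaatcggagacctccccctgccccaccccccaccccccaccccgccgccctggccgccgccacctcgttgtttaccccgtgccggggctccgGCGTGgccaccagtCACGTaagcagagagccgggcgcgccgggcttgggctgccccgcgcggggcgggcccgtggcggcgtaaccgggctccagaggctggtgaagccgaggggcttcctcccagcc
MXI1, start at 110225996: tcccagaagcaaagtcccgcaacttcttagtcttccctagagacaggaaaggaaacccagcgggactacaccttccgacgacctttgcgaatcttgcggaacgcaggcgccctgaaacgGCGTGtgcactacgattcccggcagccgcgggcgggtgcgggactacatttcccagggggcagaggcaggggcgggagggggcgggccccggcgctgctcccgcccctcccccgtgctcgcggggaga
MXD4: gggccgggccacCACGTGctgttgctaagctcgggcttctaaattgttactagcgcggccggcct
MXD3: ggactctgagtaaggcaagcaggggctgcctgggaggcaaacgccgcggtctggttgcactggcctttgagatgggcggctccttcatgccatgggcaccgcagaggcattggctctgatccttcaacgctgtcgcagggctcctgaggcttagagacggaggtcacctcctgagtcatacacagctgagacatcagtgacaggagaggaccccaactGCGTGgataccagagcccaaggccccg

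The first MXI1 window held neither motif. The second MXI1 window held GCGTG at 127 to 123 bases before the start and CACGT, which is ACGTG on the other strand, at 113 to 109 bases. The third MXI1 window held GCGTG at 131 to 127 bases before the start. MXD4 had an E-box at 238 to 233 bases before its start, so its hypoxia-response core matches are the same letters. MXD3 had GCGTG at 32 to 28 bases before its start. An E-box was present in 3 of the 12 member windows, those of MXD4, MNT and MLX, and in 6.34% of all 35116 windows of this length. A hypoxia-response core was present in 8 of the 12 and in 43.2% of all windows. A match is a description of the letters and does not show binding.

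The comparison of WT hypoxia with WT normoxia showed lower MYC beside higher MXI1, MXD4 and MXD3. MXI1 stood at 55.97 FPKM in WT hypoxia and 6.14 FPKM in WT normoxia, a log2 change of 3.0 and a 9.12-fold ratio of the levels. MYC stood at 13.31 FPKM in WT hypoxia and 34.35 FPKM in WT normoxia, a log2 change of -1.30. Of 9 members that passed the filter, 3 were called higher, against 7.41% of all 11050 genes tested, and 1 was called lower, against 14.7% of all genes tested. In all, 4 of the 9 were called, against 22.1% of all genes in either direction. Less RNA per cell and fewer cells that make the transcript cannot be told apart in bulk samples.

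The share of calls depended on the scale, because the log2 change of the median gene was -0.35. As deposited, 33.5% of all called genes were higher, and 67.5% were higher when changes were centred on the median gene. Centred in this way, MYC had a log2 change of -0.95 and was no longer called, while MXI1 was at 3.35, MXD4 at 1.72 and MXD3 at 1.43. MNT, at 1.16 when centred, was then called as well.

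**Figure D1:**
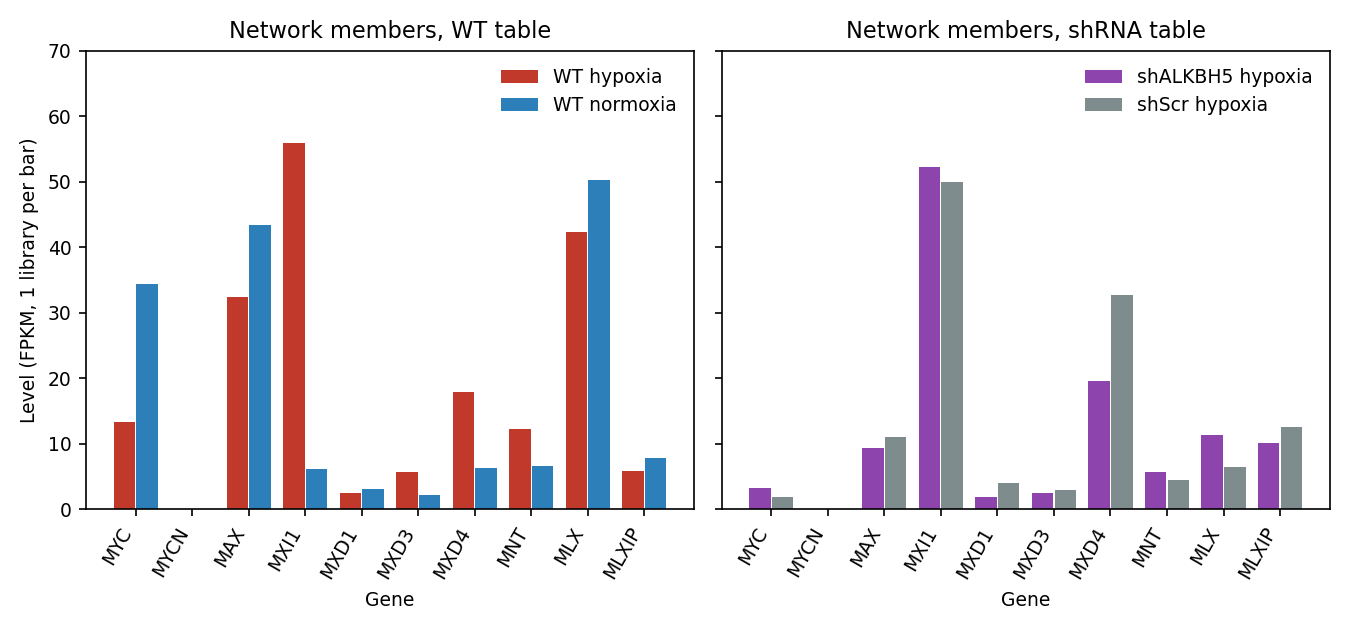
Level of each network member in FPKM, with 1 bar per library, the WT table on the left and the separately normalised shRNA table on the right. MXI1 has the highest bar in every library other than WT normoxia, where MLX at 50.33 FPKM is highest.

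Among the activators, MYC, the broadly expressed member, was the only one detected. MYCN, which is best known from the developing nervous system and neuroblastoma, was listed at 0 FPKM in both WT libraries. It had 0 reads in the shALKBH5 and shScr libraries, which allows up to 0.0727 FPKM in shALKBH5 cells and 0.0776 FPKM in shScr cells at a limit of 3 reads. The relative MYCL, which is not among the 10, stood at 3.14 FPKM in WT hypoxia and 0.18 FPKM in WT normoxia, a log2 change of 1.81. MYCL was called higher, but it passed the filter only through its level in WT hypoxia, so it had to differ. Its call is therefore not set against that of MYC.

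The partners MAX and MLX were abundant and did not reach the 2-fold rule in hypoxia. MAX, the shared partner of MYC and the repressors, stood at 32.41 FPKM in WT hypoxia and 43.33 FPKM in WT normoxia, a log2 change of -0.41. MLX stood at 42.35 FPKM in WT hypoxia and 50.33 FPKM in WT normoxia, a log2 change of -0.24 that turned to 0.11 when centred on the median gene. MLXIP stood at 5.90 FPKM in WT hypoxia and 7.83 FPKM in WT normoxia, a log2 change of -0.36. MGA, a large MAX-binding repressor outside the 10, stood at 1.78 FPKM in WT hypoxia and 6.23 FPKM in WT normoxia and was called lower at -1.38.

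The repressors differed among themselves in hypoxia. MXD4 stood at 17.96 FPKM in WT hypoxia and 6.34 FPKM in WT normoxia, a log2 change of 1.37. MXD3 stood at 5.78 FPKM in WT hypoxia and 2.20 FPKM in WT normoxia, a log2 change of 1.08. MNT, the repressor that is expressed in most tissues, stood at 12.33 FPKM in WT hypoxia and 6.62 FPKM in WT normoxia, at 0.81 and under the 2-fold rule. MXD1, the member known from cell differentiation, stood at 2.45 FPKM in WT hypoxia and 3.19 FPKM in WT normoxia, a change of -0.28 that turned to 0.07 when centred. Of the 5 repressor genes, 3 were thus called higher, and the largest of these changes was that of MXI1.

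The MXD3 value has a limit in its locus. MXD3 shares 1158 exonic bases with PRELID1 on the opposite strand and 926 with RAB24 on the same strand, and the labels do not say whether reads were counted by strand. PRELID1 stood at 112.76 FPKM in WT hypoxia and 189.61 FPKM in WT normoxia, and RAB24 at 9.15 FPKM in WT hypoxia and 9.28 FPKM in WT normoxia. PRELID1 stood at 54.9 FPKM in shALKBH5 cells and 98.8 FPKM in shScr cells. The part of shared reads in the MXD3 values was not tested. MXD3 also had a mean under 5 FPKM in both tables, so it was not called when the filter was set there. MLX shares 770 exonic bases with PSMC3IP on the opposite strand, and MXD1 shares 237 with SNRNP27 on the same strand. SNRNP27 stood at 38.77 FPKM in WT hypoxia and 43.11 FPKM in WT normoxia. It stood at 11.5 FPKM in shALKBH5 cells and 9.73 FPKM in shScr cells, above MXD1 in every library. PSMC3IP stood at 6.65 FPKM in WT hypoxia, 19.1 FPKM in WT normoxia, 1.91 FPKM in shALKBH5 cells and 2.07 FPKM in shScr cells. The part of shared reads in the MLX and MXD1 values was not tested. MXI1 and MXD4 had no such overlap with a gene above 1 FPKM in the shRNA table.

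**Figure D2:**
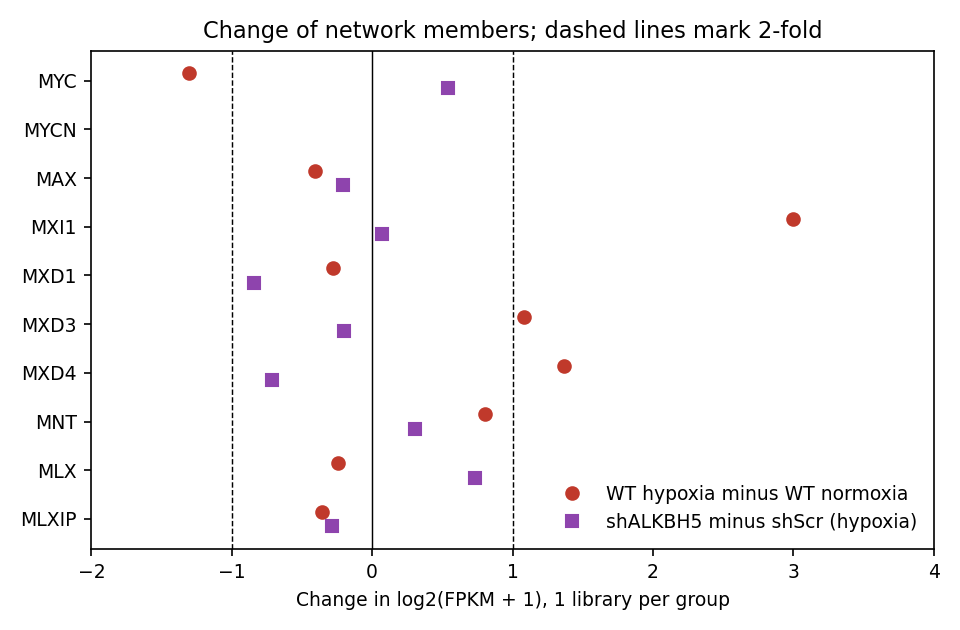
Change in log2(FPKM + 1) of each member that passed the filter, with circles for WT hypoxia minus WT normoxia and squares for shALKBH5 minus shScr in hypoxia. Circles lie outside the dashed 2-fold lines for MXI1, MXD4, MXD3 and MYC, and every square lies between the lines.

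In the comparison of shALKBH5 with shScr, both in hypoxia, 0 of the 9 members that passed the filter were called by the 2-fold rule on log2(FPKM + 1). Of all 10925 genes tested, 1.76% were called higher and 3% lower, or 4.76% in either direction, and 9 genes are too few to set a count of 0 apart from these shares. The changes of MXD1 and MXD4 were the lowest among the members, and those of MLX and MYC the highest. Exact (Clopper-Pearson) 95% intervals were taken of the log2 read ratio. Here this ratio has the reads scaled as in the deposited FPKM and no added constant. The intervals cover counting error only and compare these 2 libraries. They did not hold 0 for 8 of the 9 members, all but MXD3. The same held for 70% of all genes tested, so the count says little about the members. On the TPM scale the intervals of MAX and MLXIP held 0 as well, which left 6 of the 9, against 72% of all genes.

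The called genes also split by scale here. As deposited, 36.9% of called genes were higher in shALKBH5 cells, and this was 74.5% after rescaling to TPM, which gives each library the same sum over genes, and 61.2% after scaling to the total of recovered reads. Values on both scales are therefore given for the members whose place changed.

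MYC stood at 3.22 FPKM in shALKBH5 cells (153 reads) and 1.91 FPKM in shScr cells (85 reads). Its log2 change was 0.54, and 0.90 under TPM, with an interval of the log2 read ratio from 0.36 to 1.16. MYC was thus scarce in both shRNA libraries, and higher in the shALKBH5 library beyond counting error. MAX stood at 9.43 FPKM in shALKBH5 cells and 11.0 FPKM in shScr cells, a change of -0.21 that turned to 0.03 under TPM.

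MLX stood at 11.3 FPKM in shALKBH5 cells (762 reads) and 6.41 FPKM in shScr cells (406 reads). The log2 change of MLX was 0.73, with an interval of the log2 read ratio from 0.64 to 0.99. MLX reached 2-fold under TPM at 1.03. MLXIP, its glucose-sensing partner, stood at 10.1 FPKM in shALKBH5 cells (2226 reads) and 12.6 FPKM in shScr cells (2595 reads), a change of -0.29. The MLX-side partner and sensor thus had changes of opposite sign, though that of MLXIP was -0.05 under TPM, where its interval held 0.

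MXI1 stood at 52.3 FPKM in shALKBH5 cells (3820 reads) and 49.9 FPKM in shScr cells (3417 reads), a log2 change of 0.07. It was the highest member in both libraries. MXD4 stood at 19.6 FPKM in shALKBH5 cells (2189 reads) and 32.7 FPKM in shScr cells (3426 reads), a change of -0.71. Its log2 read ratio was -0.74, with an interval from -0.82 to -0.66. MXD1 stood at 1.85 FPKM in shALKBH5 cells (186 reads) and 4.10 FPKM in shScr cells (387 reads). Its change was -0.84. The log2 ratio of its FPKM without the added constant was -1.15, with an interval from -1.41 to -0.89.

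MXD3 stood at 2.46 FPKM in shALKBH5 cells and 2.98 FPKM in shScr cells, with an interval of the log2 read ratio from -0.56 to 0.01. MNT stood at 5.78 FPKM in shALKBH5 cells and 4.48 FPKM in shScr cells, a change of 0.31. Its log2 read ratio was 0.37, with an interval from 0.21 to 0.52. The 5 repressor genes therefore went both ways, with MXD4 and MXD1 lower and MNT higher. Under TPM, where the median gene was at 0.23, MXD1 was at -0.80, MXD4 at -0.47 and MXD3 at -0.01. MXI1 was then at 0.33 and MNT at 0.59. The TPM intervals were from -0.56 to -0.40 for MXD4 and from 0.26 to 0.39 for MXI1. The ratio of the MXD1 levels, 0.451, was past 2-fold, and MXD1 was called with a pseudocount of 0.1 FPKM, at -1.11, but not with 1 FPKM added. MXD4 and MXD1 stood on the same side as ALKBH5 itself, as did MAX, MXD3 and MLXIP. As deposited, 5 of the 9 members were below 0 and 4 above. The median over all genes tested was -0.04, so this split says little about the members. MAX was above 0 under TPM, at 0.03.

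Ratios between members of the same library do not depend on how that library was scaled. MXI1 over MYC was 4.21 in WT hypoxia and 0.179 in WT normoxia, a 23.5-fold difference. It was 16.3 in shALKBH5 cells and 26.2 in shScr cells, or 0.621 of the shScr ratio. The summed FPKM of MXI1, MXD1, MXD3, MXD4 and MNT over MYC was 7.10 in WT hypoxia and 0.713 in WT normoxia. This sum over MYC was 25.5 in shALKBH5 cells and 49.4 in shScr cells. MAX over MLX was 0.765 in WT hypoxia and 0.861 in WT normoxia, and 0.835 in shALKBH5 cells and 1.72 in shScr cells, so this ratio was more than 2-fold lower with shALKBH5, at 0.485 of the shScr value, though at 0.522 with 1 FPKM added to both genes.

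As a share of the summed FPKM of the 10 members, the 5 repressors took 50.1% in WT hypoxia and 15.3% in WT normoxia. They took 70.7% in shALKBH5 cells and 74.7% in shScr cells. MYC took 7.06% in WT hypoxia and 21.4% in WT normoxia, and 2.77% in shALKBH5 cells and 1.51% in shScr cells. The repressors thus held the larger part of the sum in all 3 hypoxic libraries and a minor part in normoxia, as the plot of shares shows. Shares are set across tables only with care, since the WT table gives no gene lengths and a gene's FPKM depends on the length used.

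**Figure D3:**
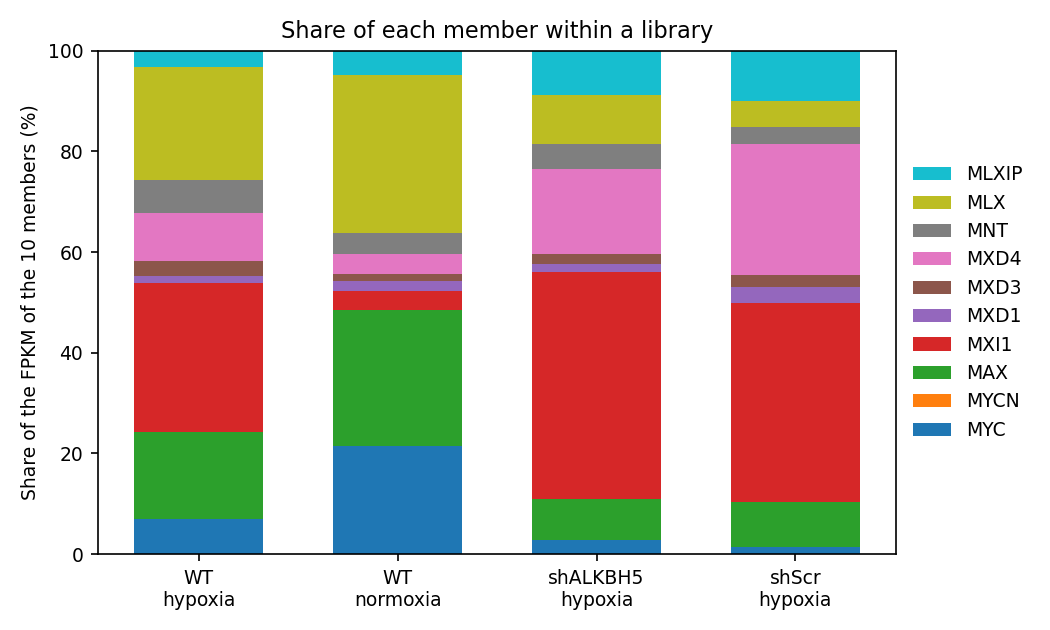
Share of each member in the summed FPKM of the 10 members, as a percent, with 1 stacked bar per library. The MYC band holds 7.06% in WT hypoxia and 21.4% in WT normoxia, and MXI1 is the widest band in the 3 hypoxic libraries.

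The order of the members also differed. MXI1 was the first of the 10 by FPKM in WT hypoxia and the seventh in WT normoxia. MYC was the fifth in WT hypoxia and the third in WT normoxia, and the seventh in shALKBH5 cells and the ninth in shScr cells. In the shALKBH5 library, exact Poisson 95% intervals of the levels overlapped between MLX and MLXIP, MLXIP and MAX, MYC and MXD3, and MXD3 and MXD1. In the shScr library such neighbours were MNT and MXD1. Among the 18217 genes named in both tables, MYC lay at percentile 75.5 of its library in WT hypoxia and 86.1 in WT normoxia, and at 62.7 in shALKBH5 cells and 56.2 in shScr cells. MXI1 lay at percentile 92.3 in WT hypoxia and 58.1 in WT normoxia, and at 95.4 in shALKBH5 cells and 94.2 in shScr cells.

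The genes that MYC is known to activate were mostly lower in WT hypoxia. Of 65 listed, 62 passed the filter, and 45 of these were called lower and 2 higher, beside 14.7% and 7.41% of all genes tested. The median log2 change was -1.40 in this list and -0.35 over all genes tested. ODC1, the first enzyme of polyamine synthesis, stood at 47.48 FPKM in WT hypoxia and 457.29 FPKM in WT normoxia, a change of -3.24. RRP9 and RRP12, which act in ribosome assembly, had changes of -2.83 and -2.62. The 2 called higher, named after their values were seen, were LDHA at 2.40 and HK2 at 2.09, glycolytic enzyme genes that are also HIF targets. Centred on the median gene, 32 were lower and 3 higher. Many members of this list are ribosome assembly and cell division genes, which other regulators control as well.

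With shALKBH5, 55 of the list passed the filter, and 2 were called lower and 0 higher, a share near the 3% of all genes called lower. The median change was -0.28 in the list and -0.04 over all genes, and -0.00 in the list under TPM against 0.23 over all genes. PLK1, a mitotic kinase gene, stood at 6.11 FPKM in shALKBH5 cells and 16.5 FPKM in shScr cells, a change of -1.30. DCTPP1, which encodes a nucleotide hydrolase, was at -1.04, and its call ended under TPM. ODC1 stood at 17.0 FPKM in shALKBH5 cells and 9.57 FPKM in shScr cells, a change of 0.77 under the 2-fold rule.

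Of 10 genes that MYC is known to repress, 7 passed the filter in WT hypoxia, and 4 were called higher and 0 lower, beside 7.41% of all genes called higher. CDKN1C and PDGFRB passed only through their level in WT hypoxia, so they had to differ. NDRG1, a stress response gene and HIF target, stood at 1768.78 FPKM in WT hypoxia and 22.40 FPKM in WT normoxia, a change of 6.24. CDKN1C, a cell cycle inhibitor gene, stood at 6.53 FPKM in WT hypoxia and 0.08 FPKM in WT normoxia, a change of 2.80, and PDGFRB, a growth factor receptor gene, was at 2.78. The fourth was CDKN1B, another cell cycle inhibitor gene, at 1.17, and GADD45A was the member below 0, at -0.82. The list had a median of 1.17 against -0.35 over all genes tested. With shALKBH5, 8 passed and 2 were called higher, beside 1.76% of all genes tested. These were GADD45A, a stress-response gene, at 1.24 and CDKN1C at 1.09, while NDRG2 was at -0.58. The list median was then 0.33 against -0.04 over all genes tested.

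**Figure D4:**
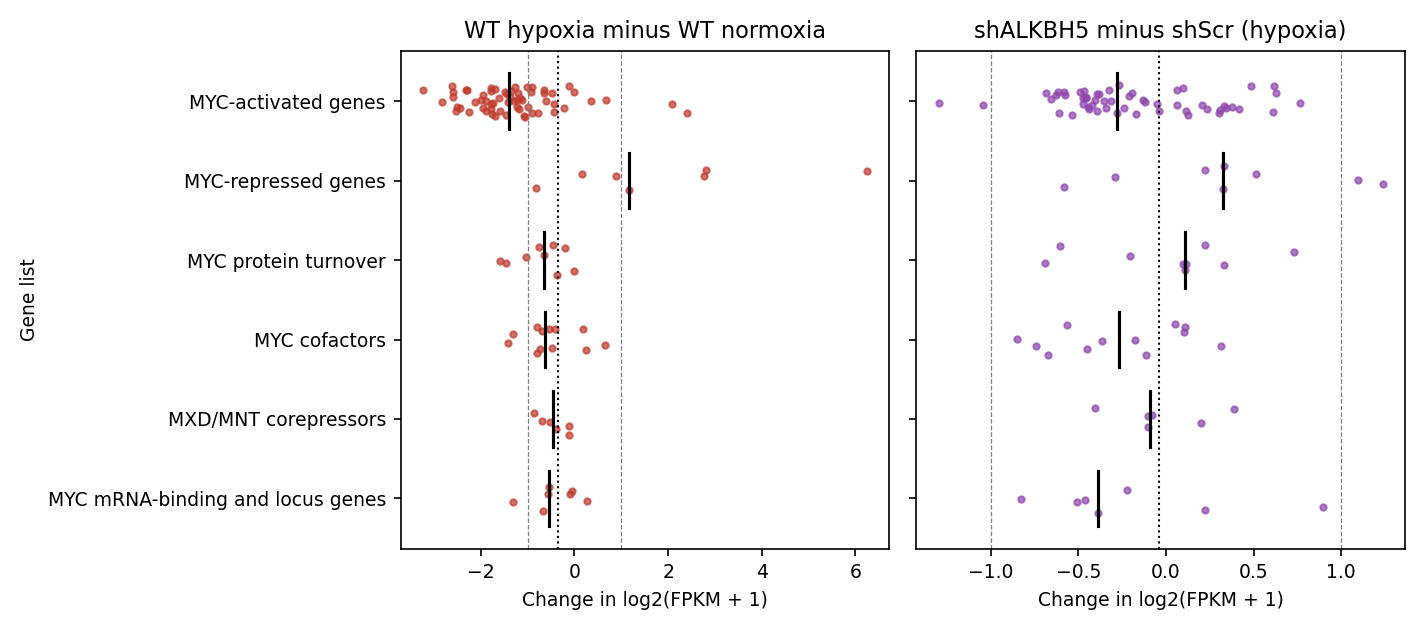
Change in log2(FPKM + 1) of each gene past the filter in 6 lists, with 1 point per gene, a bar at the list median, a dotted line at the median of all genes tested and dashed lines at 2-fold; the panels have different x axes. The MYC-activated genes centre at -1.40 in WT hypoxia minus WT normoxia, and at -0.28 in shALKBH5 minus shScr.

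Both MondoA-MLX targets were called higher with shALKBH5 and neither was called in hypoxia, a difference between the comparisons that was not tested. Of all genes tested, 1.76% were called higher with shALKBH5, and 22.1% were called in either direction in hypoxia. The list holds only 2 genes. TXNIP, which encodes an inhibitor of glucose uptake, stood at 56.0 FPKM in shALKBH5 cells (3218 reads) and 24.1 FPKM in shScr cells (1298 reads). Its change was 1.18, with an interval of the log2 read ratio from 1.12 to 1.31. ARRDC4, an arrestin-domain gene, stood at 11.7 FPKM in shALKBH5 cells (752 reads) and 4.61 FPKM in shScr cells (279 reads), a change of 1.17. Both also passed the 2-fold rule under TPM and with total recovered reads. In WT cells TXNIP stood at 11.33 FPKM in hypoxia and 12.73 FPKM in normoxia, a change of -0.16 that turned positive when centred, and ARRDC4 was at 0.19. MLXIPL, the MLXIP relative of liver and fat, stood at 0.11 FPKM in WT hypoxia and 0.03 FPKM in WT normoxia, and at 0.275 FPKM in shALKBH5 cells and 0.321 FPKM in shScr cells.

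Of 9 genes that act on the MYC protein and passed the filter, 3 were called lower in hypoxia, beside 14.7% of all genes, namely USP36, a deubiquitinase that stabilises MYC, at -1.59, CIP2A, an inhibitor of the phosphatase PP2A, at -1.46, and the kinase gene AURKA at -1.04, whose call ended when centred. The list median was -0.65. With shALKBH5 none of 9 was called, and PPP2R5A, a PP2A subunit gene, was at 0.73 and AURKA at -0.60. The median was then 0.11.

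Of 12 MYC cofactor genes, 2 were called lower in hypoxia, a share near the 14.7% of all genes. These were RUVBL1, an ATPase of chromatin complexes, at -1.42 and KAT2A, a histone acetyltransferase, at -1.31, the second of which was no longer called when centred, with EP400 at -0.80 and a list median of -0.62. With shALKBH5 none of the 12 was called, and RUVBL2 at -0.85, RUVBL1 at -0.74 and CDK9 at -0.67 were the largest changes. The 6 corepressor genes that serve the MXD proteins had no call in either comparison. Their medians were -0.46 in hypoxia and -0.09 with shALKBH5. HDAC2 stood at -0.86 in hypoxia and 0.39 with shALKBH5, NCOR1 at -0.69 in hypoxia and 0.20 with shALKBH5, and HDAC1 at -0.53 in hypoxia.

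Among 9 genes of MYC mRNA-binding proteins and the MYC locus, 7 passed the filter in each comparison. FUBP1, which binds upstream of MYC, was called lower in hypoxia at -1.31 but not when centred, and PTBP1 stood at -0.67 and HNRNPD at -0.56. With shALKBH5 none was called as deposited. IGF2BP3, an m6A reader known to stabilise MYC mRNA, stood at 6.27 FPKM in shALKBH5 cells and 2.91 FPKM in shScr cells, a change of 0.90. The interval of its log2 read ratio, which has no added constant, was from 0.93 to 1.29. It was called higher under TPM, with total recovered reads and with a pseudocount of 0.1 FPKM. FUBP1 stood at -0.83 and ELAVL1, which binds AU-rich mRNAs, at -0.50, and with a pseudocount of 0.1 FPKM FUBP1 was called lower. IGF2BP2, a related reader, was at -0.09 in hypoxia and at 0.23 with shALKBH5. The PVT1 RNA next to MYC stood at 0.643 FPKM in shALKBH5 cells and 0.772 FPKM in shScr cells, under the filter.

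The genes with the pair of changes most like those of MYC and MXI1 were sought among 5249 genes with a mean of at least 5 FPKM in both tables, by the distance between pairs of log2 changes. For MYC these were ARMC10 (-1.27 in hypoxia and 0.53 with shALKBH5), TEX30 (-1.24 and 0.54) and NFE2L2 (-1.24 and 0.53), at distances of 0.03 to 0.06. For MXI1 they were MEST (2.96 and -0.01), RASSF4 (3.05 and -0.01) and NDNF (3.09 and 0.15), at distances of 0.08 to 0.13. Each likeness rests on 2 comparisons over 4 libraries. MYC itself was under that level in the shRNA table.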

How the data were processed

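RNA was sequenced from 4 U87 libraries, 1 per group, after Trizol extraction and an NEBNext Ultra RNA kit, per the labels' protocols. The authors deposited FPKM values in 2 separately normalised tables, per the file headers, so changes were computed within a table. The submitters' processing notes name hg19, but all 58735 rows of the shRNA table matched GENCODE 29 (GRCh38) in gene start and end. The aligner, counter and strand setting were not given in the sources used here. Of the WT rows, 12 with a date and 53 with a number as symbol were left out (0.0197% of the FPKM in WT hypoxia and 0.0251% in WT normoxia). Repeated symbols in the shRNA table (1566 rows) were reduced to the row with the highest mean. Reads were recovered there as FPKM times gene length over the smallest step, and 100% of values came out whole within 0.01 read. The deposited FPKM divided by 94.5% of the recovered reads in shALKBH5 and 83.2% in shScr.

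The pseudocount was 1 FPKM, the filter a mean of 1 FPKM and the size rule 2-fold, checked on simulated data. The simulated counts followed the levels of the shRNA libraries with counting error alone. They cannot show how the rule fares with differences between cultures or in the WT libraries. With 1 library per group no test was possible. Intervals and limits of 3 reads cover counting error only. Named genes were all members, up to 3 genes of each list with the largest changes, and the 3 nearest genes of MYC and of MXI1. Values of some genes named by this rule are not reported here. One listed symbol, KIAA1524, was matched to CIP2A. The members and lists were chosen with earlier results of these data known, so no list is independent support. The alternatives tried were centring on the median gene, TPM, a pseudocount of 0.1 FPKM, a filter at 5 FPKM or none, rules of 1.5-fold and 3-fold and, for the shRNA table, total recovered reads and protein-coding genes only. The intervals on other scales and their share over all genes were added after the data were seen. For ratios, 1 FPKM was added. The work used matplotlib 3.10.9, scipy 1.17.1, pandas 2.3.3 and numpy 2.4.6 under Python 3.11.15.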

Additional observations from a re-analysis of the deposited data

How the results depend on the processing

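No paired analysis was possible because each group has 1 library, and for the same reason no replicate could be left out. Over the members and alternatives, no called change turned its sign. In hypoxia against normoxia, members called higher numbered 3, and 1 with the 3-fold rule, 2 at a filter of 5 FPKM (without MXD3) and 4 when centred or with the 1.5-fold rule (with MNT), and members called lower numbered 1, and 0 when centred or with the 3-fold rule. All genes called higher and lower numbered 819 and 1628, against 1317 and 633 when centred, 1461 and 3906 with the 1.5-fold rule, and 370 and 340 with the 3-fold rule. The MYC-activated genes called lower numbered 45, and 26 with the 3-fold rule.

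In shALKBH5 against shScr, members called higher numbered 0, but 1 under TPM and 1 with the 1.5-fold rule (MLX in both). Members called lower numbered 0, but 1 with a pseudocount of 0.1 FPKM (MXD1) and 2 with the 1.5-fold rule (MXD1 and MXD4). All genes called higher and lower numbered 192 and 328. They numbered 440 and 531 with a pseudocount of 0.1 FPKM, 82 and 218 at 5 FPKM, 928 and 1489 with the 1.5-fold rule, and 50 and 66 with the 3-fold rule. Those called higher were 1204 under TPM and 112 among protein-coding genes, and those called lower were 181 with total recovered reads. Of the MYC-activated genes, 2 were higher under TPM and 4 with the 1.5-fold rule, against 0. Those called lower were 1 under TPM, 1 with total reads, 7 with the 1.5-fold rule and 0 with the 3-fold rule, against 2. The MXI1 over MYC ratio differed 23.5-fold in hypoxia, and 19.7-fold with 1 FPKM added, and the shALKBH5 ratio was 0.621 and 0.722 of the shScr ratio. The cause of these shifts was not tested beyond the change in scale or threshold itself. The limits are 1 library per group, unknown depth and gene lengths in the WT table, and few reads for MYC in the shRNA libraries.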

Other observations

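The shRNA table annotates 91 other genes as basic helix-loop-helix factors, a list added after the data were seen. The list also holds the network relatives MYCL and MLXIPL. In WT hypoxia 32 passed the filter, of which 7 were called higher and 4 lower, beside 7.41% and 14.7% of all genes tested. MYCL was among those called higher, and it passed only through its level in WT hypoxia, so it had to differ. The median was -0.18 against -0.35 over all genes tested. BHLHE41 and BHLHE40, clock-linked repressors, stood at 94.68 and 230.75 FPKM in WT hypoxia and 17.39 and 44.31 FPKM in WT normoxia, with log2 changes of 2.38 and 2.35. With shALKBH5 34 passed, of which 3 were called higher and 5 lower, beside 1.76% and 3% of all genes tested. The median was then -0.33 against -0.04. ID3, an inhibitor of other helix-loop-helix factors, stood at 14.96 FPKM in shALKBH5 cells and 112.7 FPKM in shScr cells, a change of -2.83. ATOH8 was at -2.80, but it passed the filter only through its level in shScr cells, so it had to differ.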
